A study of Rattus norvegicus with 16 samples.

Results

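Small RNAs were counted on the fossils of DNA transposons in sorted germ cells of the rat testis. A repeat name was taken if it began with Tigger, Charlie, MamTip, FordPrefect, Arthur, Zaphod, Cheshire, Kanga, Looper, URR1, MARNA, MamRep or Eulor, and 107 of the 997 counted repeat names did. These names held 78697 annotated copies and 15524626 bases of the rn5 genome, which was 2.29% of all repeat copies and 1.57% of all repeat bases. Male Sprague-Dawley rats were fed from weaning until 19 weeks of age on a control diet (CD, 10% of calories from fat) or a high fat diet (HFD, 40% of calories from fat in the sample labels). The paper's own text states another fat content for the HFD. In both diet groups the rats carried an eGFP reporter expressed in germ cells, and eGFP-positive cells of the whole testis were sorted, so that each library holds germ cells of mixed stages. Each diet had 4 small RNA libraries and 4 mRNA libraries. The paper speaks of animals as the replicates, and the labels do not say whether both kinds of RNA came from the same ones. Germ cell markers could not be read here, because 0 of 26560 gene identifiers matched a symbol.

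DNA transposons move by cut and paste, with a transposase that recognises the ends of the element. Those listed here are mostly old insertions, many of them shared across mammals, which no longer move and survive as short remnants. Charlie, Cheshire and URR1 belong to the Charlie branch of the hAT superfamily. MamTip, FordPrefect, Arthur and Zaphod belong to its Tip100 branch. Tigger and Kanga belong to the pogo-like and Tc2-like branches of the Tc1/mariner superfamily, MARNA is a mariner remnant and Looper is a piggyBac element. MamRep and Eulor are collective names for old mammalian repeats whose origin is mixed or uncertain, so that the rule takes in some names that may not be DNA transposons. In male germ cells, PIWI-interacting RNAs (piRNAs) are small RNAs that guide silencing of transposons, and in the adult rodent testis most of them come from a limited number of genomic clusters that are poor in transposons.

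The repeat counts summed to between 2363595 and 3269169 per small RNA library and did not separate the diets (exact permutation test, two-sided p = 0.743). A count of 0 in a library therefore allows a level of up to 0.918 to 1.27 CPM. Levels are given in CPM, counts scaled to a repeat total of 1000000 in each library, and levels per kb divide these by the summed length of a name's copies. In such bulk samples, fewer cells of a type and less RNA per cell cannot be told apart.

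A known small RNA overlaps a copy in this set, and is shown here because it ties a named fossil to a defined product. The annotated miRNA rno-miR-340-5p lies at rn5 chr10:35327204-35327225 on the plus strand, inside a MARNA remnant of 42 bases at chr10:35327197-35327238 that is annotated on the minus strand. Its mature sequence, from RefSeq on GRCr8, is given 5′ to 3′ with the seed, bases 2 to 8, in capitals.
rno-miR-340-5p: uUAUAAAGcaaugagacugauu
At 22 bases it is shorter than the shortest read that the authors kept, and it was listed at 0 counts in all 8 libraries. MARNA as a whole had 171, 167, 297 and 269 counts in the HFD libraries, in the order of the replicate numbers, and 158, 308, 288 and 311 in the CD libraries. Its level was 79.1 ± 10.3 CPM on HFD and 97.4 ± 26.4 on CD (mean ± SD, n = 4 each), and the groups overlapped.

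The fossils carried 4.05 to 4.50% of all repeat counts, and a handful of names held most of it. Of the 107 names, 64 averaged 1 count or more per library and were tested. Another 31 had some counts, never above 3 in a library, and 12 were at 0 in every library. Only 32 names reached a mean count of 10, and 21 reached 100. The 4 names URR1A, Charlie1, Charlie1a and URR1B, all of the Charlie branch, made up 80.9% of the counts on these fossils. URR1A alone, a rodent element with 17714 copies, made up 45.0% of them.

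Per kb of sequence the order was different. MamRep1894, with only 29 copies and 2716 bases, had the highest level per kb of all fossil names, 94.9 CPM per kb, which ranked 6 among all 997 repeat names. Next came MamRep38 at 30.6 (rank 15), Charlie1 at 20.5, Charlie19a at 18.6 and MamTip2 at 12.5. URR1A had 5.81 per kb and its relative URR1B 1.49. Among names averaging 10 counts or more, the 3 lowest were Tigger5b at 0.0186, Charlie5 at 0.0193 and Tigger17c at 0.0298 per kb. The median over the 64 tested names was 0.0584 per kb, against 0.0892 over all 755 tested repeat classes, so that a typical fossil was at a low level and a few were among the densest repeats of the genome. Within each branch the plot of levels per kb fell over at least 2 orders of magnitude wherever a branch had 10 or more tested names.

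**Figure D1:**
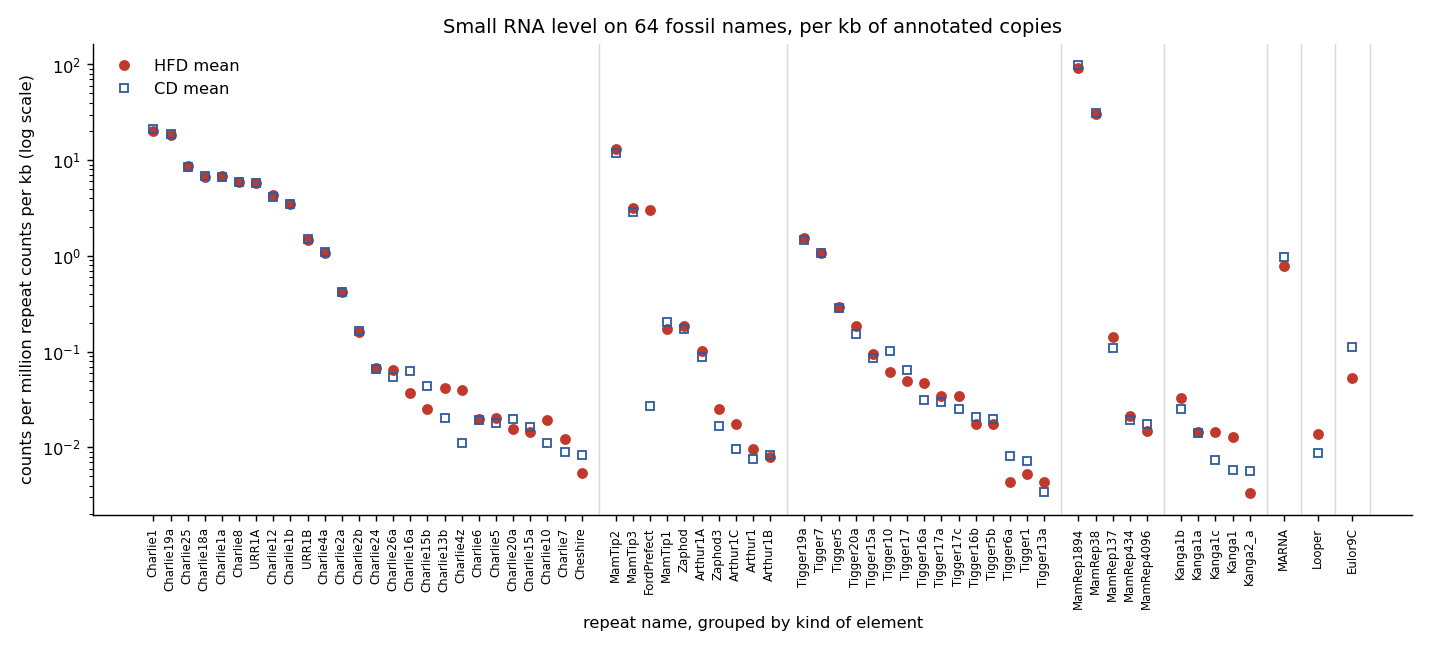
Mean level per kb (CPM per kb, log scale) of the 64 tested fossil names on HFD (filled circles) and CD (open squares), n = 4 libraries each, grouped by kind of element. The HFD and CD marks lie on or near each other for nearly every name above 0.1 per kb, and FordPrefect is the exception, at 3.0 on HFD and 0.0269 on CD.

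FordPrefect, an element of the Tip100 branch with 304 copies, was the only fossil name that passed the test between diets. It had 466, 531, 2083 and 56 counts in HFD replicates 1 to 4, against 7, 6, 6 and 7 counts in the CD libraries. All HFD libraries lay above all CD libraries, but they were far from equal. HFD replicate 3 held 66.4% of the 3136 HFD counts, and HFD replicate 4 was 7.34 times the mean CD level where replicates 1, 2 and 3 were 79.7, 93.5 and 265 times that level. In level, HFD libraries had 192 (95% Wilson interval 175 to 210), 225 (206 to 245), 637 (610 to 665) and 17.6 (13.6 to 22.9) CPM, and the CD libraries 2.00 to 2.78. The log2 fold change was 6.80 (SE 1.04), a 111-fold difference with a 95% interval of 22.8 to 544 (edgeR quasi-likelihood test, adjusted p = 0.0336). It was the only 1 of the 755 repeat classes called, in either direction and also for higher on HFD. The share called over all classes, 0.132%, is thus FordPrefect itself. The second largest size of a log2 fold change over all classes was 2.3. FordPrefect's CD libraries alone had a mean count above 1, so that the name did not enter the test only through its HFD counts.

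The size of the difference held under nearly every setting, and the call did not. The call was lost without HFD replicate 1 (log2 fold change 6.93, edgeR adjusted p = 0.0532), HFD replicate 2 (6.87, 0.100), CD replicate 1 (6.86, 0.274), CD replicate 2 (6.72, 0.218), CD replicate 3 (6.73, 0.260) or CD replicate 4 (6.86, 0.220). It was also lost with a robust fit (6.80, 0.955), with only classes averaging 10 counts or more (6.79, 0.0587), and in DESeq2 with shrunken fold changes (0.03, adjusted p = 0.409). The paper, which also tested repeat classes with DESeq2 on shrunken fold changes, reported no repeat element that differed between diets. Its filter left fewer repeat classes than the 755 tested here, and it does not say whether FordPrefect was among them. In DESeq2 without shrinkage the call was kept (6.80, adjusted p = 1.12e-10). Without HFD replicate 3, the highest library, the log2 fold change was 5.89 and the call held, and without HFD replicate 4, the lowest, it was 7.19 and the call held.

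In the CD libraries FordPrefect was unremarkable among the fossils. Its CD level of 0.0269 CPM per kb ranked 37 among the 64 tested names, below their median CD level of 0.0584. On HFD its level of 3.0 per kb ranked 14. FordPrefect_a, the other name of that element, with 69 copies, had 0 counts in all 4 HFD libraries and a single count in CD replicate 1. The rise on the FordPrefect name was thus not seen on FordPrefect_a, whose HFD libraries at 0 each allow a level of at most 1.27.

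None of the other relatives showed a rise of the size seen on FordPrefect. The set has 11 further Tip100 names, of which 9 were tested and 0 passed (edgeR adjusted p at least 0.992 for each), with 1 at an unadjusted p under 0.05. Over all 755 classes the shares were 0.132% called, which is FordPrefect alone, and 3.58% at an unadjusted p under 0.05. The tested relatives' upper 95% bounds ran up to 7.42-fold, for Arthur1C, and all lay below FordPrefect's lower bound of 22.8-fold. The difference between FordPrefect and each relative was not itself tested.

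MamTip2, with 835 short copies, was the most abundant relative. It had 2533, 2458, 3541 and 3529 counts in the HFD libraries and 2411, 2867, 2751 and 2712 in the CD libraries. Its level was 1069 ± 34.5 CPM on HFD and 985 ± 65.8 on CD (SD, n = 4 each), and CD replicate 4 at 1079 lay among the HFD libraries. The fold was 1.09, with a 95% interval of 1.02 to 1.17 (edgeR unadjusted p = 0.0180, adjusted p = 0.992). Its interval thus lay within 1.17-fold, far below the lower bound of FordPrefect.

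MamTip3 had 194, 195, 257 and 286 counts on HFD and 202, 188, 215 and 211 on CD, a fold of 1.11 (95% interval 0.952 to 1.30). Zaphod had 81, 70, 97 and 127 counts on HFD and 66, 99, 100 and 80 on CD, a fold of 1.06 (0.853 to 1.32). Both pairs of groups overlapped in level, and neither name passed the test.

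The remaining Tip100 names were close to the limit of detection. MamTip1 had 7, 5, 6 and 4 counts on HFD and 2, 8, 9 and 7 on CD, and Zaphod3 had 7, 3, 8 and 11 on HFD and 4, 3, 4 and 7 on CD. Arthur1 had 9, 3, 8 and 6 counts on HFD against 5, 7, 3 and 5 on CD, and Arthur1A had 7, 2, 7 and 5 against 3, 4, 3 and 7. Arthur1B had 2, 2, 8 and 0 counts on HFD against 1, 5, 3 and 3 on CD. None of these 5 names separated the diets, and their log2 fold changes lay between -0.26 (SE 0.42, MamTip1) and 0.63 (SE 0.40, Zaphod3). Arthur1C had 0 to 2 counts in every library, and Zaphod2 had 0 or 1. The upper 95% bounds were 1.58-fold for MamTip1, 2.3-fold for Arthur1, 2.38-fold for Arthur1A, 2.87-fold for Zaphod3 and 3.05-fold for Arthur1B, so that the intervals do not exclude rises up to these sizes.

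**Figure D2:**
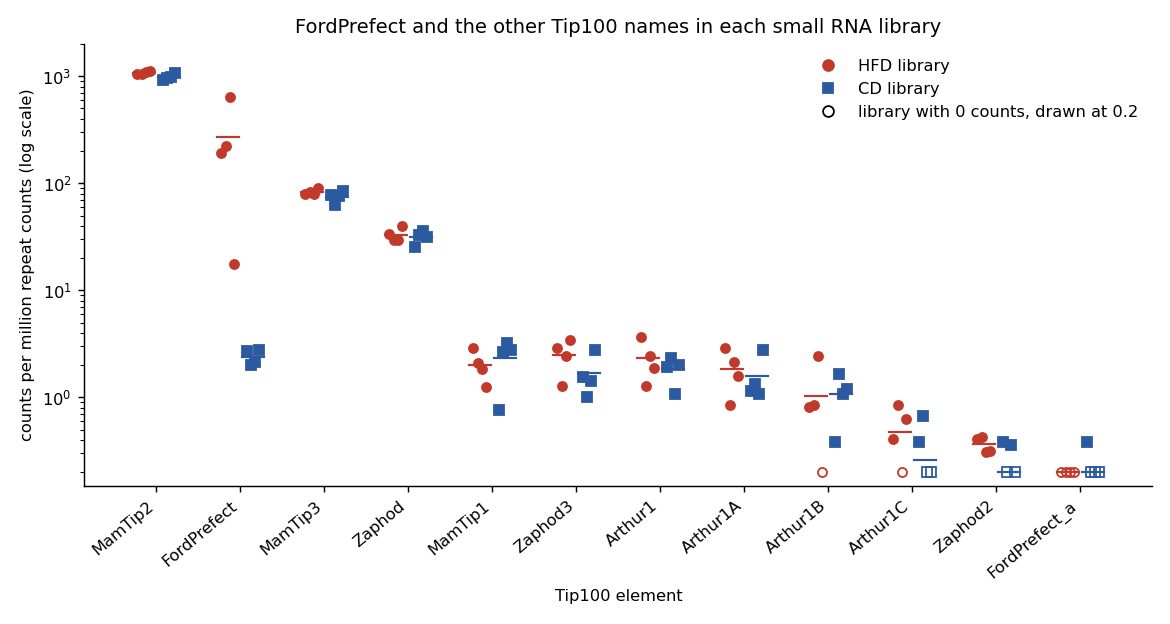
Level of each of the 12 Tip100 names in each library (CPM, log scale), with HFD libraries as circles, CD libraries as squares and short lines for group means. FordPrefect's 4 HFD libraries spread from 17.6 to 637 and its CD libraries sit at 2.00 to 2.78, while the circles and squares of every other name share a range.

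Names of the same branch that the rule did not take in did not pass the test either. Of 11 names beginning with MER91, MER97, MER115 or ORSL, 6 were tested and 0 passed, with 0 at an unadjusted p under 0.05 (DESeq2 also called 0), against 3.58% of all classes, and 3 of 6 had a positive log2 fold change. MER115, the abundant one, had 2680, 2803, 3757 and 3524 counts on HFD and 2608, 3191, 3185 and 2865 on CD, a log2 fold change of 0.08 (SE 0.05). Of 37 other DNA transposons with MER names, 35 were tested, 0 passed, 1 had an unadjusted p under 0.05, with lower values on HFD, and 16 had a positive log2 fold change. The log2 fold changes ran from -1.95 to 0.55. Their median log2 fold change was -0.03, against 0.01 over all 755 classes.

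FordPrefect moved the sum of its branch but hardly the sum of all fossils. Without FordPrefect, the fossils took 4.07, 4.10, 4.43 and 4.31% of repeat counts in the HFD libraries and 4.07, 4.37, 4.48 and 4.05% in the CD libraries. The means were 4.23 ± 0.175% on HFD and 4.24 ± 0.216% on CD (SD, n = 4 each), and the groups overlapped (exact permutation test, two-sided p = 0.857). FordPrefect itself made up 0.468, 0.545, 1.42 and 0.041% of the fossil counts in the HFD libraries. With FordPrefect in the sum, the HFD mean became 4.25% and the CD mean stayed at 4.24%, which turned the sign of a difference that was within the spread either way.

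In the Tip100 branch, FordPrefect made up 14.1, 16.2, 34.6 and 1.39% of the counts in the HFD libraries and 0.188 to 0.259% in the CD libraries. With it, the branch took 0.146 ± 0.0256% of repeat counts on HFD and 0.110 ± 0.0075% on CD, with every HFD library above every CD library (exact permutation p = 0.0286, the smallest that 4 against 4 libraries can give). FordPrefect's rise was known before this sum was made, so that this p does not test the branch apart from that row. Without it, the branch took 0.117, 0.116, 0.12 and 0.125% in the HFD libraries and 0.104, 0.106, 0.110 and 0.121% in the CD libraries. CD replicate 4 then lay inside the HFD range and the exact permutation p was 0.114. The ratio of the means fell from 1.33 to 1.09, and MamTip2 carried most of what was left. CD replicate 4 was the only CD library inside the HFD range, so leaving it out fixed in advance that the groups did not overlap. The exact permutation p was then 0.0286, again the smallest possible. Without MamTip2 the difference was 0.0011 percentage points (exact permutation p = 0.257).

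The shares of the other kinds of fossil overlapped between diets. The Charlie branch, with 43 names, took 3.84 ± 0.169% of repeat counts on HFD and 3.86 ± 0.215% on CD. The 28 Tigger names took 0.151 ± 0.0053% on HFD and 0.149 ± 0.0044% on CD. The 9 MamRep names took 0.108 ± 0.0072% on HFD and 0.110 ± 0.0061% on CD (SD, n = 4 libraries each throughout). Over the 8 kinds compared, Tip100 without FordPrefect among them, the lowest exact permutation p was 0.114 and the adjusted p was at least 0.610. With 4 libraries against 4, a single kind whose groups did not overlap could not have passed once adjusted over 8 kinds, so that the adjusted values say nothing about a difference in 1 kind. Kanga had at most 10 counts in a library, and Looper and Eulor at most 4 each, so that only a large difference could have been detected in them.

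**Figure D3:**
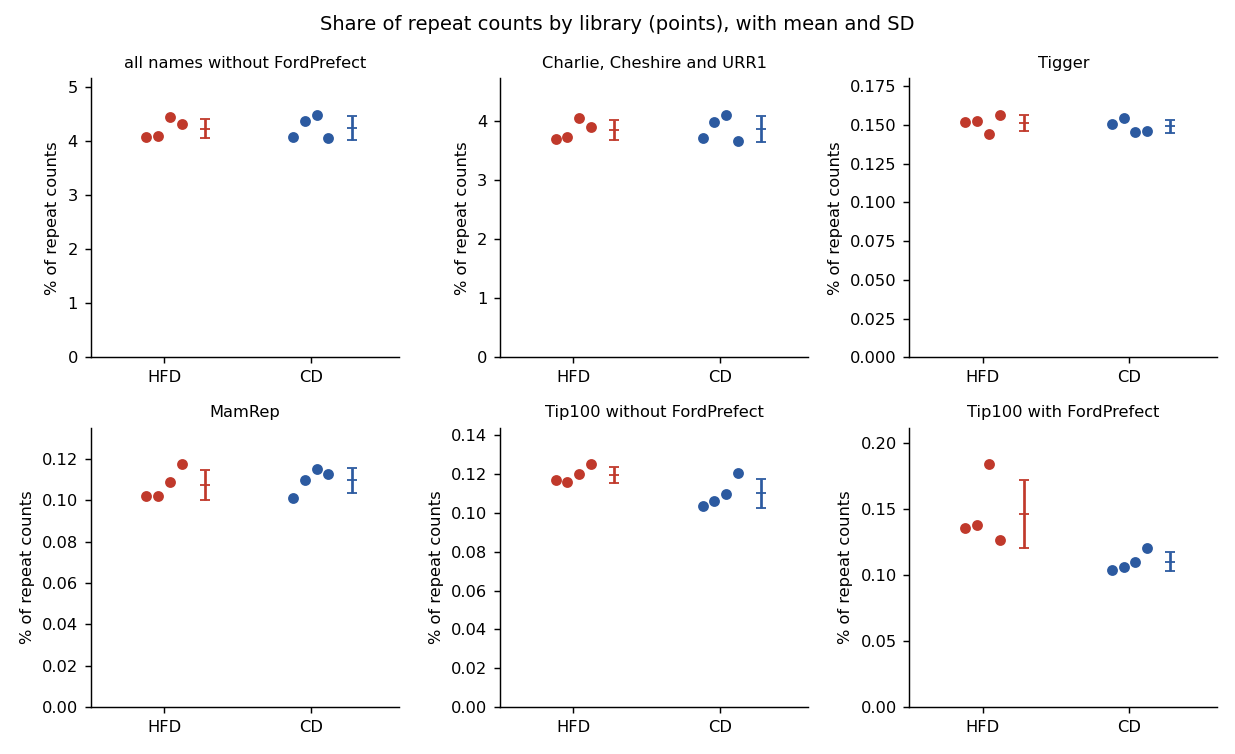
Share of all repeat counts in each library (points, in percent, axes from 0) for 6 sets of names, with the mean and SD of 4 libraries beside them. Only the set of Tip100 names with FordPrefect has all HFD points (0.127 to 0.184%) above all CD points (0.104 to 0.121%).

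Among the other abundant fossils the diets were close, and the counts were high enough to say so with some precision. The 20 names other than FordPrefect that averaged 100 counts or more had log2 fold changes between -0.28 (MARNA) and 0.15 (MamTip3). Their 95% intervals together reached from 0.622-fold to 1.30-fold. URR1A had 44857, 43529, 67940 and 60197 counts on HFD and 49157, 58748, 58871 and 41883 on CD, a fold of 1.01 (0.909 to 1.13). Charlie1 had 13215, 12639, 19544 and 19508 counts on HFD against 13054, 18292, 17654 and 16516 on CD, a fold of 0.963 (0.860 to 1.08). Charlie1a, URR1B and Tigger7 had folds of 1.01, 0.981 and 1.02.

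The densest names by length were equally close. MamRep1894 had 542, 507, 795 and 1011 counts on HFD and 463, 849, 787 and 808 on CD, a fold of 0.95 (95% interval 0.732 to 1.23). MamRep38 had 1923, 1884, 2722 and 2682 counts on HFD and 2160, 2423, 2425 and 1997 on CD, a fold of 0.998 (0.928 to 1.07). Charlie19a had a fold of 0.987 (0.901 to 1.08). In all 3 names the ranges of the HFD and CD levels overlapped.

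Of the 63 tested names other than FordPrefect, 0 passed (edgeR, lowest adjusted p = 0.992) and 3 had an unadjusted p under 0.05, against 3.58% of all 755 classes. DESeq2 without shrinkage also called 0 of them and gave 2 at an unadjusted p under 0.05, against 1.59% of all classes. The 3 names were Charlie4z and MamTip2, with higher values on HFD, and Tigger10, with lower values. Charlie4z had 4, 7, 5 and 6 counts on HFD against 1, 2, 1 and 2 on CD, a log2 fold change of 1.77 (SE 0.46, unadjusted p = 0.00279 and adjusted p = 0.992 from edgeR). Its groups did not overlap, on a mean of 3.50 counts. Tigger10 had 6, 10, 9 and 9 counts on HFD against 11, 16, 14 and 15 on CD, a log2 fold change of -0.74 (SE 0.24). In counts the 2 diets of Tigger10 did not overlap, but in level HFD replicate 2 and CD replicate 1 met at 4.23. The next lowest p-values among names with lower values on HFD were those of Charlie15b (log2 fold change -0.69, SE 0.44) and Charlie16a (-0.70, SE 0.41), both on fewer than 10 counts in every library.

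With all HFD libraries above all CD libraries in level there were 3 tested fossil names, FordPrefect, Charlie4z and Tigger16a, where 10 of all 755 classes did so (1.32%). With all HFD libraries below all CD libraries there were 0, against 6 of 755 (0.795%). Tigger16a had 5, 6, 8 and 8 counts on HFD and 5, 4, 3 and 5 on CD, and is named here after its values were seen. Over the 64 tested names 38 had a positive log2 fold change, against 53.0% of all classes, and the median was 0.03 against 0.01.

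**Figure D4:**
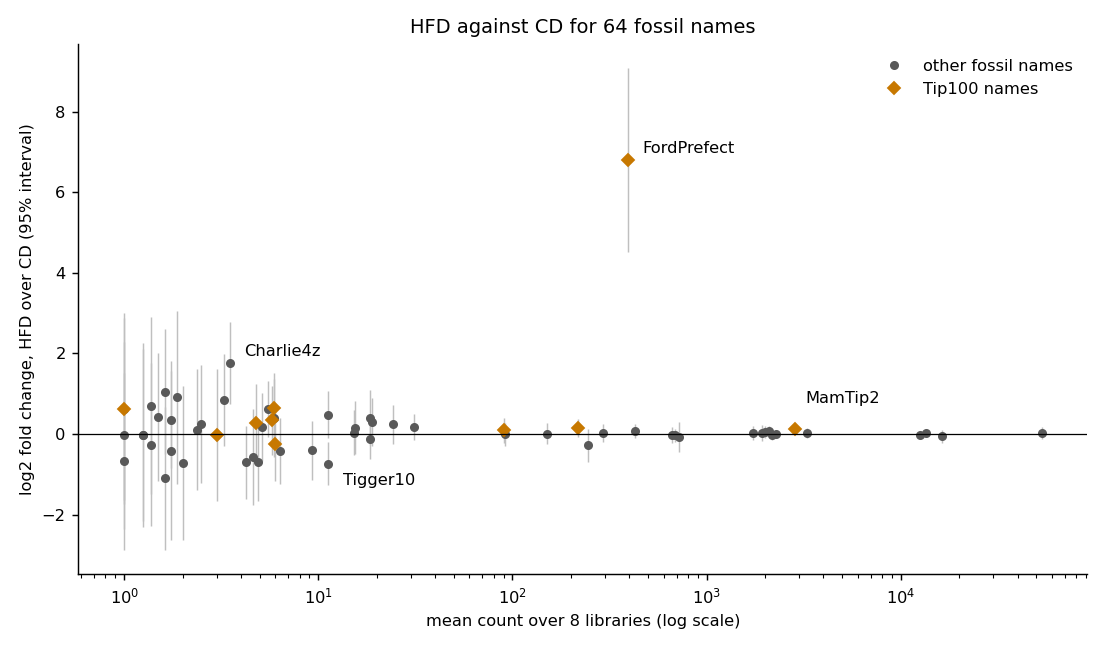
Log2 fold change of HFD over CD with its 95% interval (edgeR) against the mean count over 8 libraries (log scale) for the 64 tested fossil names, with Tip100 names as diamonds. The intervals narrow to the right and stay near 0, and FordPrefect at 6.80 is the only point far from 0 among names averaging 100 counts or more.

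Most abundant fossils had a copy in a stretch of the genome dense in annotated piRNAs. Of the 78697 copies, 73 (0.0928%) lay within 5 kb of at least 10 annotated piRNAs that map to a single place, and these 73 copies belonged to 27 names. Those 27 names held 97.3% of all counts on fossils. Their median level was 1.49 CPM per kb, against 0.00836 for the 80 names with no such copy, which include all 43 names averaging under 1 count. A name with many copies is more likely to have at least 1 there, and URR1A and URR1B, the names with the most copies, are among the 27. The same share over all repeat names is not given here. The counts are summed over a name's copies, so they do not show which copies the reads came from. Of the 21 names averaging 100 counts or more, 18 had such a copy.

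MamRep1894, the densest fossil, had 1 of its 29 copies in such a stretch, at chr6:131591673-131591725, with 737 piRNA entries within 5 kb. MamTip2 had 5 of 835 copies there, among them chr20:8917978-8918023 with 1081 entries nearby and chr8:57380374-57380410 with 538. Charlie12 had a copy at chr20:8875743-8875795 with 1119 entries within 5 kb, the most of any fossil copy. Tigger7 had 5 such copies, Charlie1 also 5, URR1A 11 of 17714 and URR1B 12 of 17327. These copies were spread over 15 chromosomes.

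The 3 names averaging 100 counts or more with no copy in such a stretch were MamRep38, FordPrefect and MARNA. FordPrefect reached that mean only through its HFD libraries, and had 6 or 7 counts in each CD library. For FordPrefect no copy had more than 1 single-place piRNA entry within 5 kb. Entries at several places were not counted in this, and 2 of them lie inside FordPrefect copies, as given below. Across the 107 names, Spearman's rho between the share of copies in such stretches and the level per kb was 0.63, a description only, since all names share the same 8 libraries and short elements with few copies weigh in both measures. The distance and the number of entries were chosen after the values were seen. With 1 kb or 20 kb in place of 5 kb, 17 and 38 names had such a copy and held 97.0% and 97.6% of the fossil counts, and with at least 50 entries 22 names held 97.3%. With at least 1 entry within 5 kb the rule took 457 copies of 69 names, among them 3 FordPrefect copies, and no name averaging 100 counts or more was left without one. The rho was 0.48 with that setting, and 0.49 between the plain number of copies of a name and its level per kb.

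**Figure D5:**
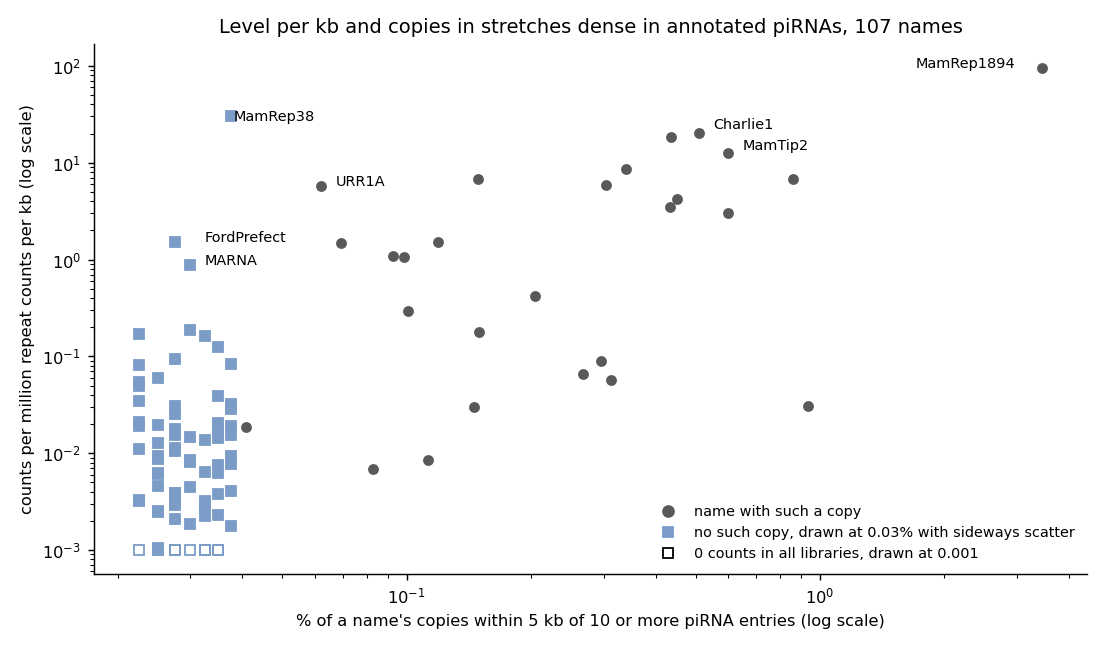
Level per kb (CPM per kb, log scale) of the 107 names. The horizontal axis is the percentage of a name's copies within 5 kb of 10 or more single-place piRNA entries (log scale). Names without such a copy (squares, drawn at 0.03%) mostly lie below 0.2 per kb, and MamRep38, FordPrefect and MARNA are the squares that lie above it. Levels are means over both diets, and FordPrefect's CD level alone is 0.0269 per kb.

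Single piRNAs inside fossil copies place some of the reads. There were 262 single-place piRNA entries wholly inside copies of 21 fossil names, and 222 of them had 0 counts in every library. Of those 222, 211 shared bases with another piRNA entry, and reads over more than 1 entry were not assigned to either, so that a count of 0 there does not show that reads were absent. An average of 1 count or more was reached by 28 entries in 14 names, and 2 of these made up 85.8% of their counts. Every piRNA entry carries a plus strand in the annotation and reads were counted on the reverse strand. These counts thus hold only reads opposite to the annotated strand. A count of 0 does not show that reads on the annotated strand were absent.

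The most abundant, rat_piRNA_181004, lay at chr7:100139852-100139879 inside a Charlie1 copy of 790 bases on the minus strand (chr7:100139203-100139992). It had 2056, 2206, 3355 and 3673 counts on HFD and 2053, 2975, 3204 and 3045 on CD, with a log2 fold change of -0.08 (SE 0.12). Its mean count was 17.3% as large as that of the whole Charlie1 name with its 982 copies. The same Charlie1 copy held 82 piRNA entries in all, the most of any fossil copy, of which 4 were tested. Some of the 82 have the same start and end as another entry. Entries were counted by identifier throughout, so that their number is not a number of separate places.

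The next, rat_piRNA_164081, lay at chr1:136188720-136188744 inside a Tigger7 copy of 171 bases. It had 1608, 1616, 1913 and 2155 counts on HFD and 1874, 2149, 1710 and 1491 on CD, with a log2 fold change of -0.04 (SE 0.10). Its mean count was 55.0% as large as that of the Tigger7 name, which has 5063 copies. A neighbouring Tigger7 copy at chr1:136188921-136189060 held rat_piRNA_165323, with a mean count of 156.6 and a log2 fold change of -0.23 (SE 0.13). A MamTip3 copy at chr1:136179150-136179275, less than 10 kb away, held rat_piRNA_68096, whose mean count was 47.0% as large as that of the MamTip3 name. In Charlie4a, rat_piRNA_86553 at chr1:132045356-132045383 had 104, 94, 112 and 133 counts on HFD and 108, 106, 80 and 102 on CD. For MamTip2 the only tested entry inside a copy, rat_piRNA_162495, was 0.0746% as large as the name's count, and 10 of the 11 entries inside its copies overlapped another entry.

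None of these piRNA entries differed between diets by the test, in reads opposite to the annotated strand. Of the 28 tested entries 0 passed (edgeR, lowest adjusted p = 0.996) and 0 had an unadjusted p under 0.05, also by DESeq2, against 2.99% of all 7818 tested piRNAs at an unadjusted p under 0.05 and 0.0% at an adjusted one. The lowest p-values with higher values on HFD were those of rat_piRNA_70184 in Tigger7 (log2 fold change 0.43, SE 0.22), rat_piRNA_167492 in Charlie1 (0.36, SE 0.24) and rat_piRNA_181963 in Charlie1a (0.35, SE 0.33). With lower values on HFD they were rat_piRNA_165323, rat_piRNA_154350 in URR1A (-0.61, SE 0.72) and rat_piRNA_151676 in MARNA (-0.52, SE 0.60). No single-place piRNA lay inside a FordPrefect copy. The 2 entries that did, rat_piRNA_63335 and rat_piRNA_63499, map to 8 and 9 places, 8 of them for each inside FordPrefect copies on 3 chromosomes, and had 0 counts in all 8 libraries. Both overlap another entry and lie at several places, where the paper counted only uniquely aligned reads. Their counts of 0 therefore do not show that reads were absent, on either diet.

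In the mRNA libraries, none of the genes that share exon sequence with FordPrefect passed the test. Exons of 6 genes overlapped 8 of its 304 copies, and 0 of the 6 passed the edgeR test (lowest adjusted p = 0.83) or had an unadjusted p under 0.05. Their log2 fold changes ran from -1.24 (ENSRNOG00000047746, SE 0.82) to 0.71 (ENSRNOG00000049138, SE 0.66), and these 2 genes are named after their values were seen. The 24 genes with exons over any Tip100 copy gave 20 tests, of which 0 passed and 0 had an unadjusted p under 0.05, also by DESeq2, against 3.73% of all 19446 tested genes by edgeR. The smallest p among them was that of ENSRNOG00000020124, over a MamTip2 copy, with a log2 fold change of -0.33 (SE 0.18). Gene counts cover whole genes, so that they do not show RNA from the copies themselves.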

How the data were processed

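Small RNA and mRNA were sequenced from sorted germ cells of HFD and CD rats (4 libraries per diet and kind of RNA, grouped by title). The deposited values are raw read counts, not normalized by the authors. According to the paper, the labels and the file headers, reads were trimmed, aligned to rn5 (STAR 2.3.0 for mRNA) and uniquely aligned reads counted with featureCounts 1.4.6, on either strand for repeats and on the reverse strand for genes and piRNAs. A repeat row sums all copies of a name, and reads over more than 1 name, or more than 1 piRNA entry, are dropped. Of the fossils' bases 0.308% also lie in another class.

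Rows that averaged 1 count or more were tested on the whole table with edgeR 4.0.16 in R 4.3.3 (TMM, quasi-likelihood, Benjamini-Hochberg adjusted p under 0.05), after a check on simulated data. The SE is the log2 fold change over the square root of F. DESeq2 1.42.0 was the alternative. Shares were compared by exact two-sided permutation over the 70 labellings (smallest p 0.0286). Overlaps were made with bedtools 2.31.1. Wilson intervals and floors cover counting error only, and the widest 95% Wilson interval of a fossil share spans 0.0507 percentage points. The edgeR intervals of fold changes also include the spread between libraries. Totals per library were 2363595 to 3269169 for repeats, 891575 to 1240080 for piRNAs and 38633043 to 62038805 for genes.

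Names, lists and tests were chosen with earlier results of these data known. Named were FordPrefect, the other Tip100 names, names past the threshold, the 3 lowest p-values in each direction, the 5 most abundant, the 5 highest and 3 lowest per kb from a mean count of 10, the 5 most abundant piRNAs on copies with the 3 lowest p-values in each direction and those on FordPrefect copies, and the exon gene of smallest p. Gene lists by symbol were not analysed here. For CD replicate 4 of the small RNA libraries the count column carries another number than its record, which was followed. The same library was the only CD library inside the HFD range for MamTip2 and for the Tip100 share without FordPrefect. No libraries agreed within sampling noise over repeat classes (chi-square per degree of freedom at least 7.88). Over 32 fossil names the lowest value was 1.70, for HFD replicates 1 and 2, and the next was 5.85.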

Additional observations from a re-analysis of the deposited data

Results flagged for a closer look

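In groups of 4 libraries, a library was singled out when its gap to the nearest other library exceeded the share of the group's range that Dixon's test allows at 95%. Chance singles out about 1 in 20 groups, and 2 of the 92 groups examined were. Arthur1A reached 2.78 CPM in CD replicate 4, against 1.07 to 1.33 in the other CD libraries, on 7 counts. The MARNA piRNA rat_piRNA_151676 reached 7.56 CPM of piRNA counts in CD replicate 3, against 3.07 to 3.57 in the other CD libraries, on 8 counts. FordPrefect's high HFD replicate 3, at 637 CPM, was not singled out by this test.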

How the results depend on the processing

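FordPrefect was the only repeat class and the only fossil name called, and this count of 1 became 0 with DESeq2's shrunken fold changes (log2 fold change 0.03, against 6.80 from both edgeR and DESeq2 without shrinkage), with a robust fit and with a filter at a mean count of 10. With single libraries left out the count ran from 0 to 1, and FordPrefect's log2 fold change from 5.89 to 7.19 with adjusted p from 6.02e-05 to 0.274. It remained called with DESeq2 without shrinkage, DESeq2 size factors, library totals, scaling without FordPrefect and no filter, and with the replicate block (adjusted p = 0.000116). The labels do not say whether the replicate numbers pair the libraries. Same-numbered libraries correlated by -0.01 to 0.16 over repeat classes, and differently numbered ones by -0.02 on average. The block called 0 other fossil names, and gave an exact permutation p = 0.125 for the Tip100 share and 0.625 for the fossil share, where 4 pairs cannot give less than 0.125. All other counts of calls stayed at 0 under each alternative run.

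The fossil share without FordPrefect differed by -0.0138 percentage points, and by -0.0828 to 0.0663 with single libraries left out. It turned to 0.0127 with FordPrefect kept, and to 0.0150 as the mean log2(CPM + 1) over names. The Tip100 share differed by 0.0094 percentage points, by 0.0360 with FordPrefect kept (exact permutation p = 0.0286), and by 0.0073 to 0.0129 with single libraries left out, with p from 0.0286 (without CD replicate 4) to 0.2.

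Of the named features other than FordPrefect, 0 passed under any of 537 alternatives. Leaving out single libraries turned the sign of small log2 fold changes, with ranges of -1.05 to 0.42 for Arthur1B, -0.059 to 0.013 for Charlie19a, -0.0096 to 0.045 for Charlie1a, -0.052 to 0.34 for Charlie5, -0.22 to 0.015 for MamRep1894, -0.032 to 0.016 for MamRep38, -0.012 to 0.060 for Tigger7, -0.050 to 0.056 for URR1A, -0.023 to 0.14 for Zaphod, -0.11 to 0.017 for rat_piRNA_164081 and -0.0077 to 0.18 for rat_piRNA_86553. The causes were not tested. Gene lists by symbol could not be run, and depth limits the 32 tested names under a mean count of 10.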
